A study of Mus musculus with 12 samples.

Results

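The sebaceous gland lipid genes are 10 genes whose products make, modify or store the fats of sebum: Scd1, Scd3, Elovl3, Fa2h, Far2, Awat1, Awat2, Soat1, Cidea and Mgst1. They were chosen by name, with the tumour and skin values of these same libraries already known, and they are 10 of 34303 gene symbols in the table, 14752 of which were expressed highly enough to be tested. All 10 were among the 14752. The study measured gene expression by RNA sequencing in mice that lack the TA isoforms of the transcription factor p63 (TAp63-/-) and in wild-type (WT) mice, all on a C57Bl6 background. Cutaneous squamous cell carcinomas (cSCC) came from mice older than 35 weeks that had received ultraviolet radiation 3 times a week at 2.5 kJ/m2, with 4 TAp63-/- and 2 WT tumours. Skin came from the shaved backs of untreated mice aged 4 weeks, with 3 TAp63-/- and 3 WT libraries. Tissue, age and irradiation therefore cannot be told apart in any tumour and skin comparison. How the TAp63 allele was made, the animals' sex and whether each library came from its own animal are not given in the sources used here, so a p-value measures only the spread between these libraries.

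Sebaceous glands sit beside the hair follicle, and their cells, the sebocytes, fill with lipid and burst to release sebum onto the hair and skin surface. Mouse sebum is rich in wax esters, which join a long fatty acid to a fatty alcohol, and in sterol esters. The pathway runs from desaturation and elongation of fatty acids, through hydroxylation and reduction to fatty alcohols, to esterification and packing into lipid droplets. Loss of Scd1 in asebia mice leaves the sebaceous glands rudimentary. Several of the same genes also work in fat tissue, Scd1 in white fat and Elovl3 and Cidea in brown fat.

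Of the 10 genes, 2 pairs are neighbours (mm10, positions counted from 1). Scd3 (19:44203288-44244016) and Scd1 (19:44394451-44407709) lie within 204.4 kb, together with their relatives Scd2 and Scd4. Awat2 (X:100402221-100442717) and Awat1 (X:100572251-100578205) lie within 176 kb, with Dgat2l6, a further member of the same acyltransferase family, between them. Elovl3 (19:46131897-46135694), Fa2h (8:111345135-111393824), Soat1 (1:156428108-156474328), Mgst1 (6:138140316-138156755) and Far2 (6:148047259-148182758) have no other member beside them, and neither has Cidea. Of the 50-base stretches in the annotated transcripts, 6.26% of those of Scd3 and 4.56% of those of Scd1 also occur in another Scd gene, whereas Awat1 and Awat2 share none, so a small part of the Scd reads could have been split between genes.

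RefSeq promoter windows of 300 bases (GRCm38.p6, 250 bases before and 50 after a transcription start) were at hand for 6 of the 10 genes, 8 windows in all. The 250 bases upstream of the start are shown for the neighbouring wax synthase genes Awat2 and Awat1, whose levels parted in the WT tumours, for Scd3, which was low in every tumour, and for Soat1, which was not. Capitals mark CCAAT, a common proximal promoter motif. The windows shown are chrX:100442718-100442967 (minus strand) for Awat2, chrX:100571997-100572246 (plus strand) for Awat1, chr19:44203038-44203287 (plus strand) for Scd3 and chr1:156474329-156474578 (minus strand) for Soat1.
Awat2: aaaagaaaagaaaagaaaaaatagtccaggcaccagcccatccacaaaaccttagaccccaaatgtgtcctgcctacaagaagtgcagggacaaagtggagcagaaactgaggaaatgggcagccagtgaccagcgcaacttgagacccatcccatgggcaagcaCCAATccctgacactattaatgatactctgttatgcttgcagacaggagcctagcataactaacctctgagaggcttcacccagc
Awat1: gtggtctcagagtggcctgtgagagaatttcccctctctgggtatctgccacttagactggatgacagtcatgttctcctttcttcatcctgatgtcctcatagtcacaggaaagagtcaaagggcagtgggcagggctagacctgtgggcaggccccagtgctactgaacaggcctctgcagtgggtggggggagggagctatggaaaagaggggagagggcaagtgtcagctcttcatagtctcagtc
Scd3: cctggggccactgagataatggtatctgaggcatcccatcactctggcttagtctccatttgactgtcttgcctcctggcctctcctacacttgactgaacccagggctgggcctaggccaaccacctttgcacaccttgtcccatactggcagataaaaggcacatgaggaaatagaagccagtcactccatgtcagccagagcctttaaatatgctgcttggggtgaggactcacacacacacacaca
Soat1: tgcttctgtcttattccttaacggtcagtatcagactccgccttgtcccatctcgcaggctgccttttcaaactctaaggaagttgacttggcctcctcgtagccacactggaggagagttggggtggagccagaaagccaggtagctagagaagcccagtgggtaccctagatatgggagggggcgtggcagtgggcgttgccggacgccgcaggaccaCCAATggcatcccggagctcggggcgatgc
Both strands of the full 300-base windows were searched for CCAAT, for the TATA box TATAAA, for the E-box CACGTG, for the nuclear receptor half-site AGGTCA, and for DR1, a pair of AGGTCA half-sites 1 base apart on which PPAR-gamma is known to bind. Counting bases from the window's first, CCAAT stood at bases 221 to 225 in Soat1, 166 to 170 in this Awat2 window, 130 to 134 on the opposite strand in a second Awat2 window, and 293 to 297 on the opposite strand in Awat1, beyond the stretch shown. None of the other 4 motifs stood in the 8 windows, and the windows of Scd3, Mgst1 and Far2 held none of the 5. Among 32851 RefSeq windows of the same length, CCAAT stood in 37.4%, AGGTCA in 16.3%, TATAAA in 13.6%, CACGTG in 7.15% and DR1 in 0.0396%. These matches describe letters, and binding was not measured.

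Values were deposited as FPKM, fragments counted per transcript length and per library size, which allow levels to be compared between genes. Every library summed to between 780180 and 780251 FPKM, and between 13019 and 13073 symbols reached 1 FPKM, so the libraries had been scaled to 1 common distribution and differences are relative to the rest of the transcriptome. By Xist and Y-linked transcripts, all 6 skin libraries and TAp63-/- cSCC replicate 1 were male and the other 5 tumours female, so sex also moved with tissue. The deposited Trp63 value sums the TA and the other isoforms and therefore checks no genotype label. Differences below are on the log2(FPKM + 1) scale, and a gene is called when its adjusted p from limma, with Benjamini-Hochberg adjustment over the 14752 genes, is under 0.05.

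In skin, the 10 genes spanned a wide range of levels. Over the 6 skin libraries Scd1 had the highest median at 547 FPKM, followed by Mgst1 at 129, Scd3 at 105, Far2 at 71.2 and Fa2h at 63.9 FPKM. Cidea (38.0), Awat1 (36.6), Awat2 (23.4), Soat1 (22.9) and Elovl3 (21.2 FPKM) followed, and the ranges of each neighbouring pair in this order overlapped except those of Scd1 and Mgst1. Over the 6 tumours the medians ran from 111 FPKM for Scd1 and 52.4 for Mgst1, through 19.1 for Fa2h, 17.9 for Far2 and 17.9 for Soat1, to 11.6 for Elovl3, 8.09 for Awat1, 7.48 for Cidea, 3.03 for Scd3 and 2.02 FPKM for Awat2. Scd3 thus stood behind Scd1 and Mgst1 in skin and ahead of Awat2 alone in tumours.

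In tumours of TAp63-/- mice the mean of each of the 10 genes stood below TAp63-/- skin, with a median log2 difference of -2.66 against 0.10 over all tested genes. In WT tumours 7 of the 10 means of log2(FPKM + 1) stood below WT skin and 3 above it (median -0.40 against 0.04), and the 2 WT tumours lay far apart. Awat1, below WT skin on that scale, stood above it by mean FPKM, at 30.1 FPKM in WT cSCC and 27.3 FPKM in WT skin. The genes were chosen with these tumour and skin values known, so the differences are given as a description with no test. In bulk tissue, fewer sebocytes and less RNA per sebocyte cannot be told apart. Every TAp63-/- tumour stood below every TAp63-/- skin library in 8 of the 10 genes, all but Elovl3 and Soat1, where 16.2% of all tested genes did so. Both WT tumours stood below all 3 WT skin libraries in 3 of the 10 (Awat2, Mgst1 and Scd3), against a background of 25.5%. Nothing is read from either count, since the same values chose the genes.

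**Figure D1:**
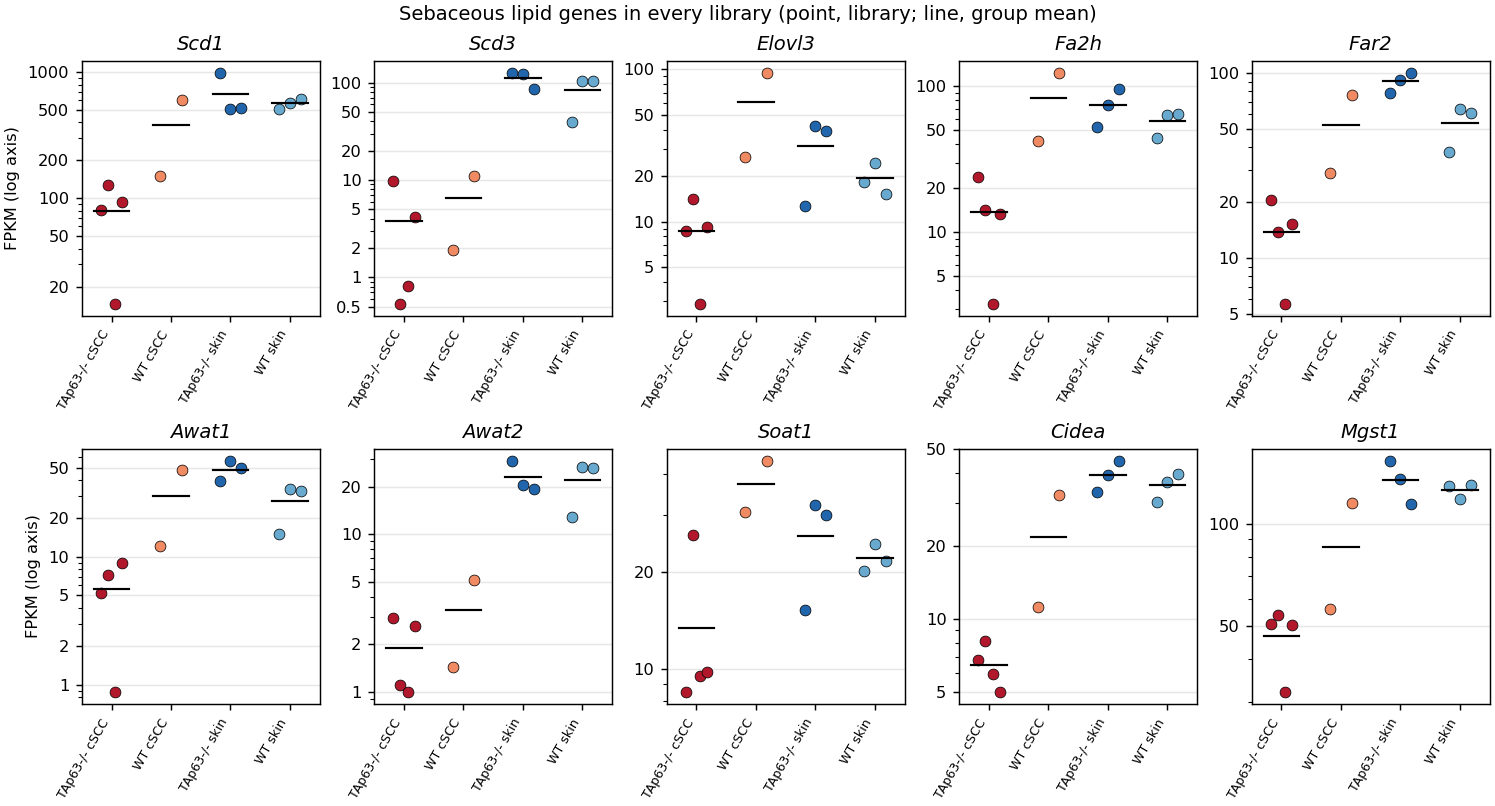
FPKM (log axis) of the 10 genes in each library, 1 panel per gene, with 4 TAp63-/- cSCC, 2 WT cSCC, 3 TAp63-/- skin and 3 WT skin points and a line at each group mean. The TAp63-/- tumours lie below the skin groups in most panels, while the 2 WT tumours lie apart, with WT cSCC replicate 2 the highest tumour in all 10 panels.

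The desaturases, which place the first double bond in saturated fatty acids, differed in how far they dropped in tumours. Scd1, the main desaturase of skin, had 81.6, 128, 14.6 and 93.9 FPKM in TAp63-/- cSCC and 152 and 606 FPKM in WT cSCC, against 993, 513 and 523 FPKM in TAp63-/- skin and 514, 571 and 617 FPKM in WT skin. The TAp63-/- tumours all lay below every skin library, whereas WT cSCC replicate 2 lay inside the range of WT skin. The log2 difference of tumours from skin was -3.35 in TAp63-/- mice and -0.90 in WT mice. Scd3, a desaturase prominent in mouse sebaceous glands, had 9.70, 0.53, 0.82 and 4.13 FPKM in TAp63-/- cSCC and 1.93 and 11.1 FPKM in WT cSCC, against 127, 122 and 85.0 FPKM in TAp63-/- skin and 39.6, 105 and 105 FPKM in WT skin. All 6 tumours lay below all 6 skin libraries, and the log2 differences were -4.97 in TAp63-/- mice and -3.69 in WT mice, the lowest of the 10 genes in both genotypes. Scd3 amounted to between 0.41% and 11.9% of Scd1 in TAp63-/- tumours and to 1.27% and 1.83% in WT tumours, against 12.7% to 23.8% in TAp63-/- skin and 7.71% to 18.4% in WT skin. The 0.41% was that of TAp63-/- cSCC replicate 2 and rests on 0.53 FPKM of Scd3.

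The enzymes that lengthen and hydroxylate fatty acids were low in most TAp63-/- tumours and stood above all WT skin libraries in WT cSCC replicate 2. Elovl3, which elongates saturated and monounsaturated acids for sebum and brown fat, had 8.63, 14.02, 2.88 and 9.25 FPKM in TAp63-/- cSCC and 26.3 and 94.5 FPKM in WT cSCC, against 12.7, 42.2 and 39.5 FPKM in TAp63-/- skin and 18.1, 24.4 and 15.2 FPKM in WT skin. Both WT tumours exceeded all 3 WT skin libraries, and TAp63-/- cSCC replicate 2 overlapped TAp63-/- skin. The log2 difference was -1.73 in TAp63-/- mice and 1.36 in WT mice, the highest of the 10 genes in WT. Fa2h, which adds a hydroxyl group at the second carbon, had 23.9, 14.2, 3.23 and 13.3 FPKM in TAp63-/- cSCC and 42.0 and 124 FPKM in WT cSCC, against 52.8, 74.9 and 96.4 FPKM in TAp63-/- skin and 44.5, 63.7 and 64.1 FPKM in WT skin. The TAp63-/- tumours and TAp63-/- skin did not overlap, while the 2 WT tumours lay on either side of WT skin, and the log2 differences were -2.58 and 0.35.

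Of the wax-forming enzymes, Far2 and Awat1 followed the pattern of Fa2h, and Awat2 did not. Far2, which reduces fatty acids to the fatty alcohols of waxes, had 20.7, 13.8, 5.64 and 15.2 FPKM in TAp63-/- cSCC and 28.7 and 76.5 FPKM in WT cSCC, against 78.4, 92.0 and 101 FPKM in TAp63-/- skin and 37.4, 63.9 and 60.8 FPKM in WT skin. Awat1, an acyltransferase that joins acid and alcohol into wax, had 5.25, 7.18, 0.876 and 9.001 FPKM in TAp63-/- cSCC and 12.1 and 48.0 FPKM in WT cSCC, against 39.0, 56.5 and 49.2 FPKM in TAp63-/- skin and 15.1, 34.1 and 32.8 FPKM in WT skin. For both genes TAp63-/- tumours and skin did not overlap and the WT tumours lay on either side of WT skin, with log2 differences of -2.74 for Far2 and -3.13 for Awat1 in TAp63-/- mice, and -0.16 and -0.08 in WT mice. Awat2, the second wax synthase, had 2.93, 1.11, 0.995 and 2.60 FPKM in TAp63-/- cSCC and 1.44 and 5.12 FPKM in WT cSCC, against 29.1, 20.6 and 19.3 FPKM in TAp63-/- skin and 12.8, 26.6 and 26.2 FPKM in WT skin. All 6 tumours lay below all 6 skin libraries, as for Scd3, and the log2 differences were -3.09 in TAp63-/- mice and -2.49 in WT mice. The balance of the 2 neighbouring genes differed most plainly in WT mice, where Awat2 amounted to 11.9% and 10.7% of Awat1 in tumours, against 77.9% to 84.8% in skin. In TAp63-/- mice the ranges overlapped, at 15.4% to 114% in tumours and 36.5% to 74.7% in skin. The 114% was that of TAp63-/- cSCC replicate 3, where both genes were under 1 FPKM, and replicate 1, at 55.7%, lay inside the range of skin.

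Soat1, which esterifies cholesterol, stood closest to its skin level in TAp63-/- mice. It had 8.51, 25.9, 9.51 and 9.84 FPKM in TAp63-/- cSCC and 30.7 and 44.1 FPKM in WT cSCC, against 15.3, 32.3 and 30.0 FPKM in TAp63-/- skin and 20.2, 24.3 and 21.5 FPKM in WT skin. TAp63-/- cSCC replicate 2 lay inside the range of TAp63-/- skin and the other 3 TAp63-/- tumours below it, and both WT tumours lay above WT skin, with log2 differences of -0.97 and 0.72. Cidea (18:67343564-67367794), which sits on lipid droplets and lets them grow, had 6.79, 8.16, 5.92 and 5.005 FPKM in TAp63-/- cSCC and 11.3 and 32.3 FPKM in WT cSCC, against 33.3, 39.2 and 44.9 FPKM in TAp63-/- skin and 30.4, 36.7 and 39.4 FPKM in WT skin. Mgst1, a membrane-bound glutathione transferase that protects lipids from oxidation and is abundant in sebocytes, had 50.9, 53.8, 32.1 and 50.5 FPKM in TAp63-/- cSCC and 56.3 and 115 FPKM in WT cSCC, against 153, 135 and 114 FPKM in TAp63-/- skin and 129, 118 and 130 FPKM in WT skin. Both genes were low in every TAp63-/- tumour, none of which overlapped TAp63-/- skin. Their log2 differences were -2.43 for Cidea and -1.51 for Mgst1 in TAp63-/- mice, and -0.85 and -0.63 in WT mice.

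**Figure D2:**
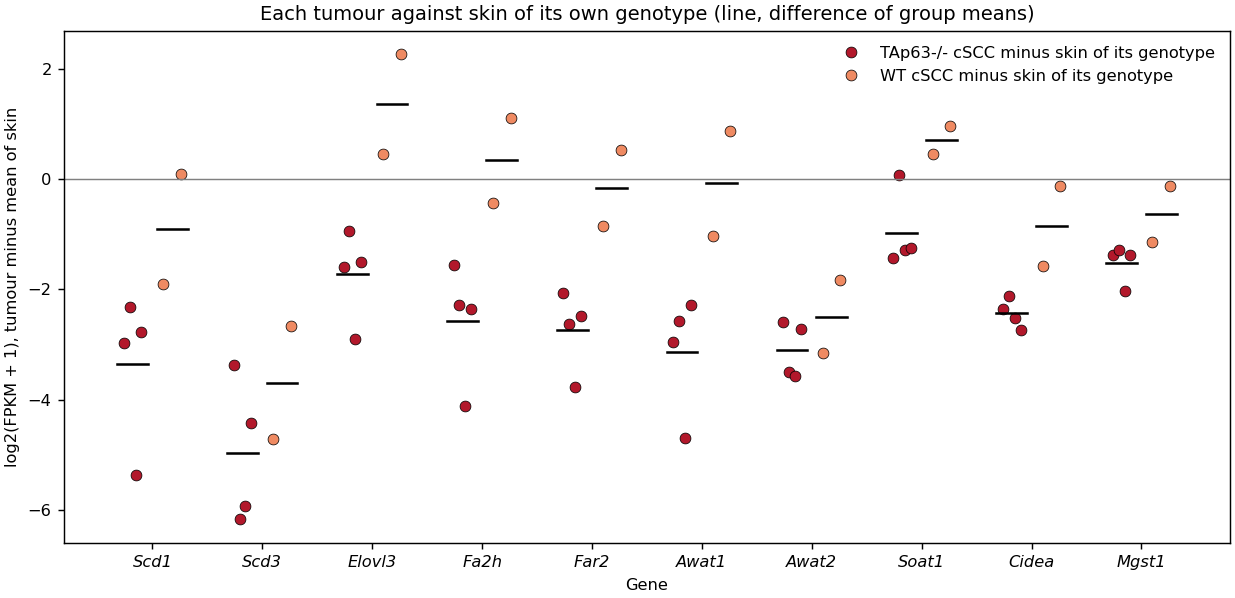
log2(FPKM + 1) of each tumour minus the mean of skin of the same genotype, per gene, with 4 TAp63-/- cSCC points and 2 WT cSCC points and a line at the difference of group means. TAp63-/- cSCC replicate 3 is far down for most genes, and WT points lie on both sides of 0 for Scd1, Fa2h, Far2 and Awat1. Scd3, Awat2, Cidea and Mgst1 lie below 0 in every tumour, with WT cSCC replicate 2 close to 0 for Cidea and Mgst1.

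Counted tumour by tumour, TAp63-/- cSCC replicates 1, 3 and 4 stood below all 6 skin libraries in 10 of the 10 genes and replicate 2 in 8. WT cSCC replicate 1 did so in 8 of the 10, all but Elovl3 and Soat1, and WT cSCC replicate 2 in 2, Awat2 and Scd3. Over all tested genes that share was 29.9%, 32.3%, 30.6% and 28.6% for TAp63-/- cSCC replicates 1 to 4, and 30.2% and 31.6% for WT cSCC replicates 1 and 2. All 6 tumours lay below all 6 skin libraries in 2 of the 10, against 10.9% of all tested genes.

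The same tumours stood at the ends of the order in most of the genes. WT cSCC replicate 2 was the highest of the 6 tumours in all 10 genes, and TAp63-/- cSCC replicate 3 the lowest in 7. Against the mean of skin of their own genotype, the median over the 10 genes was -2.21, -2.30, -3.67 and -2.42 in TAp63-/- cSCC replicates 1 to 4, and -1.08 and 0.32 in WT cSCC replicates 1 and 2. Without WT cSCC replicate 2 the WT median of -0.40 became -1.08, and without WT cSCC replicate 1 it became 0.32, so its sign rests on which WT tumour is counted. The TAp63-/- median stayed between -2.94 and -2.40 whichever single library was left out. Among the 6 skin libraries WT skin replicate 1 was the lowest in 6 genes, and TAp63-/- skin replicate 1 was the highest in 4 and the lowest in 2.

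In TAp63-/- skin the mean of each of the 10 genes was slightly above WT skin, by between 0.09 and 0.87 on the log2 scale (median 0.27, against 0.02 over all tested genes). None of the 10 passed the test, with adjusted p-values between 0.923 and 0.970 by limma, where 0.0203% of all tested genes, 3 in number, were called. Awat1 averaged 48.2 ± 8.8 FPKM in TAp63-/- skin and 27.3 ± 10.6 FPKM in WT skin (SD, n = 3 each), a log2 difference of 0.87 with a standard error of 0.34 (limma adjusted p = 0.923). Far2 averaged 90.4 ± 11.2 FPKM in TAp63-/- skin and 54.1 ± 14.5 FPKM in WT skin (SD, n = 3 each), a log2 difference of 0.76 with a standard error of 0.23 (limma adjusted p = 0.923). In these 2 genes every TAp63-/- skin library exceeded every WT skin library, and they were the 2 of 10 with an unadjusted p under 0.05. The background was 6.77% of all tested genes for libraries that did not overlap in this direction and 3.02% for an unadjusted p under 0.05 with a higher mean. The smallest differences were 0.09 for Mgst1 (95% interval -0.25 to 0.42), 0.12 for Awat2 (-0.66 to 0.90) and 0.13 for Cidea (-0.25 to 0.52). Leaving out TAp63-/- skin replicate 1 turned the differences of Awat2, Mgst1 and Scd1 to -0.06, -0.01 and -0.13, leaving out TAp63-/- skin replicate 2 turned Soat1 to -0.03, and leaving out WT skin replicate 1 turned Awat2 to -0.21.

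In TAp63-/- tumours the mean of each of the 10 genes was below WT tumours, by between 0.48 and 2.57 on the log2 scale (median -1.68, against 0.03 over all tested genes), and none passed the test. The adjusted p by limma was 1 for every member, and 0.0% of all tested genes were called in this comparison. Of the 14752 tested genes 419 had an unadjusted p under 0.05 by limma, fewer than chance alone would give at that threshold. Fa2h averaged 13.7 ± 8.5 FPKM in TAp63-/- cSCC (SD, n = 4) and 82.9 ± 57.8 FPKM in WT cSCC (n = 2), a log2 difference of -2.57 with a 95% interval of -4.36 to -0.79 (limma adjusted p = 1). Elovl3 averaged 8.69 ± 4.56 FPKM in TAp63-/- cSCC (SD, n = 4) and 60.4 ± 48.2 FPKM in WT cSCC (n = 2), a log2 difference of -2.55 with a 95% interval of -4.15 to -0.95 (limma adjusted p = 1). Scd1 (-2.27), Awat1 (-2.19), Far2 (-1.82), Soat1 (-1.53), Cidea (-1.45) and Mgst1 (-0.80) followed, and in these 8 genes each TAp63-/- tumour stood below both WT tumours, as 4.14% of all tested genes did. Awat2 (-0.48) and Scd3 (-0.76), the genes low in every tumour, overlapped between the genotypes, and without WT cSCC replicate 2 their differences turned to 0.18 and 0.26. Of the 10 genes 7 had an unadjusted p under 0.05, against a background of 1.87% for such a p with a lower mean. The choice of the genes may also have drawn on these tumour values, so nothing is read from the uncorrected counts.

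**Figure D3:**
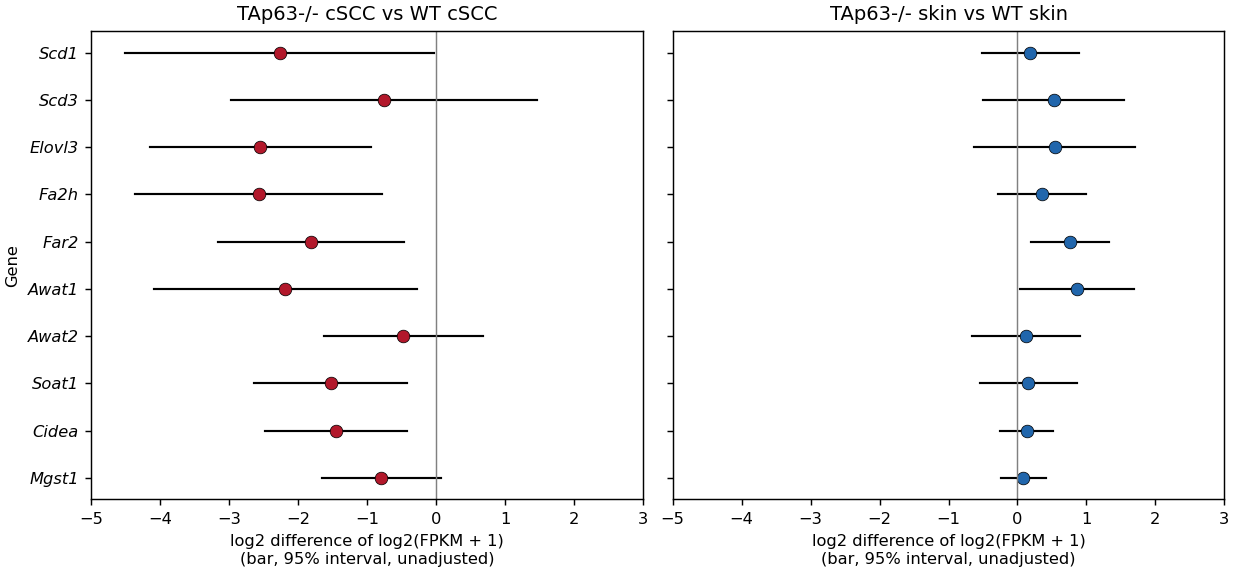
Difference of mean log2(FPKM + 1) per gene for TAp63-/- cSCC minus WT cSCC (left, 4 and 2 libraries) and TAp63-/- skin minus WT skin (right, 3 and 3 libraries), with bars for the unadjusted 95% interval. All 10 points lie below 0 in tumours and above 0 in skin, with intervals much wider in tumours, and 0 of the 10 passed the adjusted threshold in either panel.

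Whether the tumour and skin difference itself differed between the genotypes was tested as an interaction over the 12 libraries. All 10 estimates were negative, between -3.09 for Elovl3 and -0.60 for Awat2 (median -2.08, against 0.01 over all tested genes). In 7 genes the mean of log2(FPKM + 1) dropped further in TAp63-/- than in WT tumours. In the other 3, Elovl3, Fa2h and Soat1, it dropped in TAp63-/- tumours and rose in WT tumours. None passed: the adjusted p by limma was 0.726 for Far2 (-2.58, standard error 0.65) and 0.9998 for each of the others, where 0.0271% of all tested genes, 4 in number, were called. Uncorrected, 8 of the 10 had a p under 0.05 with a negative estimate, against a background of 2.03%. The interaction holds the tumour and skin values with which the genes were chosen, so nothing is read from that count or from the shared sign. Without WT cSCC replicate 1, which leaves 1 WT tumour assumed to vary like the other groups, Cidea passed (limma adjusted p = 0.0497), and without WT cSCC replicate 2 the estimate of Awat2 turned to 0.07.

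Beyond the 10 genes, some genes in each of 4 lists of other lipid pathway genes fell in TAp63-/- tumours. In all, 26 of 53 tested genes of these lists fell and 1 rose, where 14.2% of all tested genes fell and 13.0% rose. In WT tumours 3 of the 53 fell and 1 rose, where 6.77% of all tested genes fell and 4.66% rose. The lists were drawn up with earlier results of these libraries known, so the counts and calls describe these libraries and nothing more is read from them. The comparisons also use different numbers of tumours, so the counts do not set the genotypes apart. In the genotype comparisons in skin and tumours and in the interaction, 0 of the 53 were called.

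Other sebocyte and sebaceous duct genes fell in TAp63-/- tumours in 8 of 13 tested, with 0 higher (median log2 difference -1.37, against 0.10 over all tested genes). The share of all tested genes that fell was 14.2%. Dgat2l6, which lies between the Awat genes, averaged 1.496 ± 0.946 FPKM in TAp63-/- cSCC (SD, n = 4) and 16.8 ± 3.0 FPKM in TAp63-/- skin (n = 3), a log2 difference of -2.91 (limma adjusted p = 0.00174). Pparg, the nuclear receptor that drives sebocyte and fat cell maturation, averaged 2.59 ± 1.88 and 17.7 ± 8.6 FPKM in the same groups, a difference of -2.43 (limma adjusted p = 0.00338). Lrig1, a marker of the stem cells above the gland, fell by 0.97 (limma adjusted p = 0.00453), and Dgat2, which makes triglycerides, fell by 2.00 (limma adjusted p = 0.00559). In WT tumours Dgat2 alone of the 13 passed, at -1.73 (limma adjusted p = 0.0477), and Lrig1 (-0.68), Pparg (-1.37) and Gata6 (-0.73), next by p, did not. With sex as a covariate, which rests on the single male tumour, the differences of Dgat2l6 and Dgat2 in TAp63-/- mice and of Dgat2 in WT mice no longer passed, at limma adjusted p = 0.0634, 0.138 and 0.493. Dgat2 in WT mice also failed without the filter on low values (limma adjusted p = 0.0865) and with only the WT libraries in the fit (0.0754). The WT call of Dgat2 held on leaving out WT cSCC replicate 2, TAp63-/- cSCC replicate 1 or TAp63-/- skin replicate 1 and was lost on leaving out any 1 of the others.

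Among paralogues of the 10 genes, 5 of 10 tested fell in TAp63-/- tumours and Mgst2 rose. The share of all tested genes was 14.2% for a fall and 13.0% for a rise. Elovl5, which elongates polyunsaturated acids, averaged 31.8 ± 12.1 FPKM in TAp63-/- cSCC (SD, n = 4) and 297 ± 83 FPKM in TAp63-/- skin (n = 3), a log2 difference of -3.23 (limma adjusted p = 0.000108). Elovl4, which makes the ultra-long acids of the skin barrier, fell by 1.87 (limma adjusted p = 0.0038), Mgst3 fell by 1.74 (0.00414) and Cidec, a lipid droplet protein of white fat, fell by 4.04 (0.00577). Mgst2, a glutathione transferase of the same family as Mgst1, moved the other way, averaging 20.6 ± 13.5 FPKM in TAp63-/- cSCC (SD, n = 4) and 5.57 ± 3.49 FPKM in TAp63-/- skin (n = 3; log2 difference 1.60, limma adjusted p = 0.0379). In WT mice Mgst2 alone of the 10 passed, averaging 26.0 ± 6.7 FPKM in WT cSCC (SD, n = 2) and 4.22 ± 0.65 FPKM in WT skin (n = 3; log2 difference 2.36, limma adjusted p = 0.0307), and Cidec (-3.21), Elovl5 (-1.30) and Far1 (0.75) did not. Neither Mgst2 call held without the filter on low values (limma adjusted p = 0.0713 and 0.0615), the WT call was lost on leaving out any 1 of the WT libraries, and the TAp63-/- call on leaving out TAp63-/- cSCC replicates 1 or 4, TAp63-/- skin replicates 1 or 2 or any WT skin library. With sex as a covariate Mgst3 and Cidec no longer passed in TAp63-/- mice, at limma adjusted p = 0.153 and 0.13.

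Of 15 genes of fatty acid and glycerolipid synthesis 8 fell in TAp63-/- tumours and 0 rose, where 14.2% of all tested genes fell. Gpam, which starts triglyceride synthesis, averaged 3.99 ± 1.02 FPKM in TAp63-/- cSCC (SD, n = 4) and 20.9 ± 3.8 FPKM in TAp63-/- skin (n = 3), a log2 difference of -2.14 (limma adjusted p = 0.000132). The acetyl-CoA carboxylase gene Acacb fell by 2.54 (limma adjusted p = 0.000375), Me1, a source of NADPH, by 1.82 (0.000811) and Acss2, which makes acetyl-CoA from acetate, by 1.58 (0.00111). The other 4 of the 8, Fasn, Mlxipl, Thrsp and Acsl1, no longer passed with sex as a covariate, at limma adjusted p = 0.0867, 0.224, 0.0716 and 0.294, and Acsl1 was also lost without TAp63-/- skin replicate 1. In WT tumours Gpam (-1.29, limma adjusted p = 0.0172) and Acsl1 (-1.64, 0.034) fell, and Acacb (-1.28) and Thrsp (-2.32) did not pass. Both WT calls were lost with sex as a covariate (limma adjusted p = 0.316 for Gpam and 0.464 for Acsl1) and on leaving out WT cSCC replicate 1, WT skin replicate 2 or WT skin replicate 3, and that of Acsl1 also with no filter on low values (0.0615). Of 15 cholesterol synthesis genes 5 fell in TAp63-/- tumours, among them Hmgcs1 by 0.97, Lss by 1.31 and Fdps by 0.71 (limma adjusted p = 0.00388, 0.0218 and 0.0242). With only the TAp63-/- libraries in the fit Lss no longer passed (limma adjusted p = 0.0591). Of the 15, 2 were called without TAp63-/- skin replicate 1 and 1 without TAp63-/- skin replicate 3. In WT tumours 0 of the 15 were called by limma and 0 had an unadjusted p under 0.05, Insig1 (-1.01) being first by p.

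**Figure D4:**
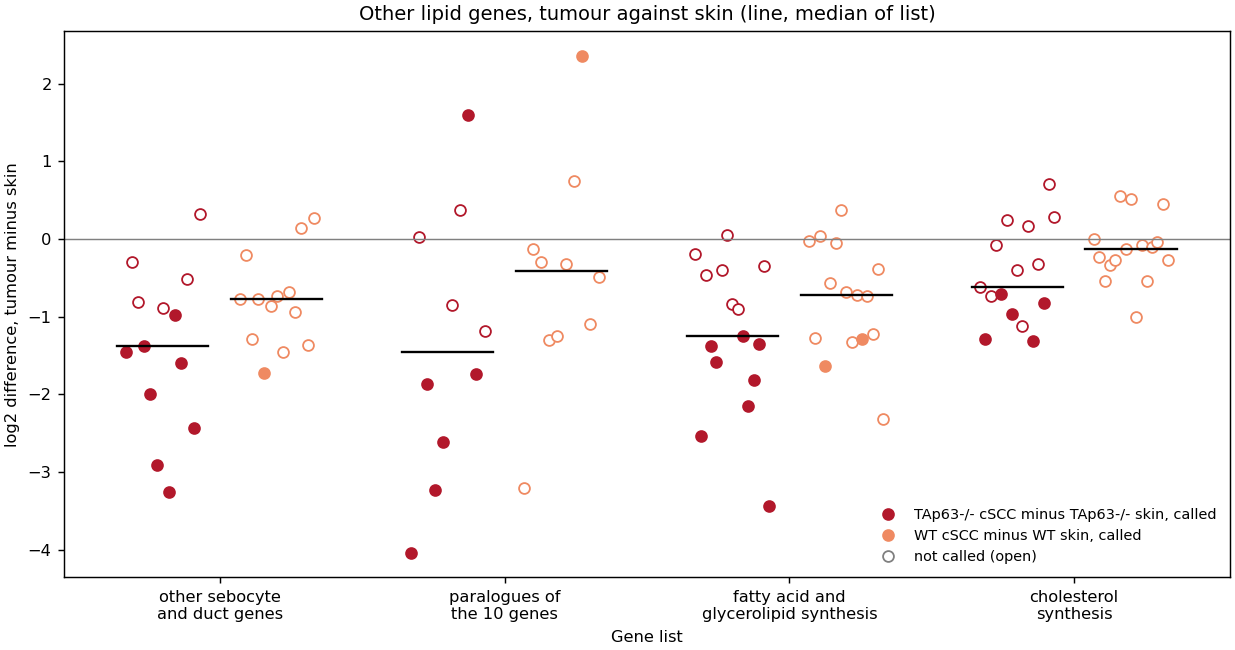
Difference of mean log2(FPKM + 1), tumour minus skin of the same genotype, for each tested gene of 4 lists of other lipid genes, with filled points for genes called by limma, open points for the rest and a line at the list's median. In TAp63-/- mice 26 points are filled below 0 and 1 above, and in WT mice 3 below and 1 above.

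The single WT tumours carried much of the WT counts. Without WT cSCC replicate 2, 12 of the 53 genes fell in WT tumours, and without WT cSCC replicate 1, 0 did. Without WT skin replicates 2 or 3, 0 fell, and without TAp63-/- cSCC replicate 3 or TAp63-/- skin replicate 1, which share in the estimate of spread, 5 fell. In TAp63-/- tumours between 20 and 28 fell whichever library was left out. With sex as a covariate 13 fell in TAp63-/- tumours and 0 in WT tumours.

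Markers of neighbouring cell types moved with the 10 genes in part. The 10 white adipocyte markers summed to 74.7 to 2808 FPKM in TAp63-/- cSCC and 1447 to 1717 FPKM in WT cSCC, against 871 to 4329 FPKM in TAp63-/- skin and 2223 to 2530 FPKM in WT skin. Fabp4 held 61.9% of that sum and none of the 10 markers was at 0. Its level did not fall with the others, averaging 1095 ± 1162 FPKM in TAp63-/- cSCC and 1370 ± 29 FPKM in WT cSCC. In skin it averaged 923.9 ± 906 FPKM in TAp63-/- mice and 1083 ± 65 FPKM in WT mice. The log2 differences of Fabp4, tumour minus skin, were -0.41 in TAp63-/- mice and 0.34 in WT mice, and neither was called by limma. The other 9 markers summed to 22.97 to 169.5 FPKM in TAp63-/- cSCC and 56.2 to 367.6 FPKM in WT cSCC, against 491.3 to 2360 FPKM in TAp63-/- skin and 1086 to 1482 FPKM in WT skin, so that without Fabp4, a sum chosen after seeing the data, all 6 tumours lay below all 6 skin libraries. Of the 10 markers 8 fell in TAp63-/- tumours and 3 in WT tumours, and 0 rose in either. The share of all tested genes that fell was 14.2% in TAp63-/- tumours and 6.77% in WT tumours. Adipoq, a hormone of fat cells, averaged 3.27 ± 2.62 FPKM in TAp63-/- cSCC (SD, n = 4) and 108.1 ± 109.3 FPKM in TAp63-/- skin (n = 3), a log2 difference of -4.44 (limma adjusted p = 0.00172). The lowest sum of all 10 was that of TAp63-/- cSCC replicate 3, the lowest library for 7 of the 10 sebaceous genes, and the highest that of TAp63-/- skin replicate 1, which had the highest Scd1, Scd3, Awat2 and Mgst1 and the lowest Elovl3 and Soat1 of the skin libraries. TAp63-/- skin replicates 2 and 3, with sums of 871 and 942 FPKM, had the highest Elovl3, Awat1, Soat1, Fa2h, Cidea and Far2 of the skin libraries and the lowest Scd1 and Mgst1. Of the 8 brown adipocyte markers, Ucp1, which defines that cell, was listed at 0 in all 12 libraries, and the rest, led by Cox8b and Cox7a1, which muscle also expresses, summed to 15.3 to 40.5 FPKM in TAp63-/- cSCC and 14.5 to 50.8 FPKM in WT cSCC, against 284 to 370 FPKM in TAp63-/- skin and 344 to 432 FPKM in WT skin.

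Hair follicle keratins varied within every group. The 8 markers summed to 1.45 to 276 FPKM in TAp63-/- cSCC and 4.06 and 2902 FPKM in WT cSCC, against 10.95 to 3414 FPKM in TAp63-/- skin and 399 to 4324 FPKM in WT skin. The WT tumour with the higher sum was replicate 2, the highest tumour in all 10 sebaceous genes. In skin, TAp63-/- skin replicate 1, at 10.95 FPKM of hair keratins, was the highest skin library in 4 of the 10 genes and the lowest in 2, and WT skin replicate 1, at 4324 FPKM, was the lowest skin library in 6 of the 10 genes. Krt27, Krt28, Krt31, Krt33a and Krt35 were each listed at 0 in at least 1 library.

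Skeletal muscle markers, from the muscle layer under mouse skin, summed to 38.0 to 191 FPKM in TAp63-/- cSCC and 75.8 and 554 FPKM in WT cSCC, against 4805 to 8200 FPKM in TAp63-/- skin and 4249 to 5464 FPKM in WT skin. Fibroblast markers summed to 790 to 2575 FPKM in TAp63-/- cSCC and 1120 and 1369 FPKM in WT cSCC, against 3890 to 8759 FPKM in TAp63-/- skin and 2399 to 4851 FPKM in WT skin. Schwann cell markers summed to 16.5 to 31.3 FPKM in TAp63-/- cSCC and 22.9 and 46.6 FPKM in WT cSCC, against 147 to 201 FPKM in TAp63-/- skin and 111 to 217 FPKM in WT skin. All 6 tumours thus lay below all 6 skin libraries in the muscle, fibroblast and Schwann cell sums, apart from TAp63-/- cSCC replicate 2 in the fibroblast sum. Melanocyte markers summed to 1.963 to 4.996 FPKM in TAp63-/- cSCC and 1.51 and 46.3 FPKM in WT cSCC, against 20.2 to 196 FPKM in TAp63-/- skin and 81.8 to 193 FPKM in WT skin. Macrophage markers summed to 113 to 809 FPKM in TAp63-/- cSCC, a span that covers the other groups, and to 213 and 238 FPKM in WT cSCC, against 444 to 665 FPKM in TAp63-/- skin and 281 to 664 FPKM in WT skin. The 8 epidermal keratin and cornified envelope markers, which define the labelled tissues, summed to 8430 to 18770 FPKM in TAp63-/- cSCC and 10140 and 23460 FPKM in WT cSCC, against 7667 to 12270 FPKM in TAp63-/- skin and 6595 to 9575 FPKM in WT skin, and Krt14 and Krt5 held 42.5% and 20.7% of that sum over the 12 libraries. Of the 8, 5 fell and 2 rose in TAp63-/- tumours, where 14.2% of all tested genes fell and 13.0% rose. In WT tumours 3 of the 8 fell and 1 rose, where 6.77% of all tested genes fell and 4.66% rose. Krt77 averaged 4.86 ± 6.34 FPKM in TAp63-/- cSCC (SD, n = 4) and 14.3 ± 3.7 FPKM in WT cSCC (n = 2), against 1128 ± 493 FPKM in TAp63-/- skin and 952 ± 275 FPKM in WT skin (n = 3 each). Flg2, a gene of the cornified layer, averaged 1.757 ± 0.825 and 4.43 ± 1.12 FPKM in TAp63-/- and WT cSCC, against 80.1 ± 40.9 and 58.9 ± 21.7 FPKM in TAp63-/- and WT skin. Krt14, Krt5 and Krt1 had higher means in tumours of both genotypes. Krt14 averaged 8305 ± 4284 and 9628 ± 6588 FPKM in TAp63-/- and WT cSCC, against 1026 ± 193 and 1016 ± 177 FPKM in skin. Krt5 averaged 2990 and 3085 FPKM in the same tumours, against 1547 and 1940 FPKM in skin. For Krt1 the means were 1206 and 2506 FPKM, against 954.9 and 589.5 FPKM. Sums of several other skin tissues were thus lower in tumours than in skin along with the sebaceous genes, and their part in the results was not tested.

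**Figure D5:**
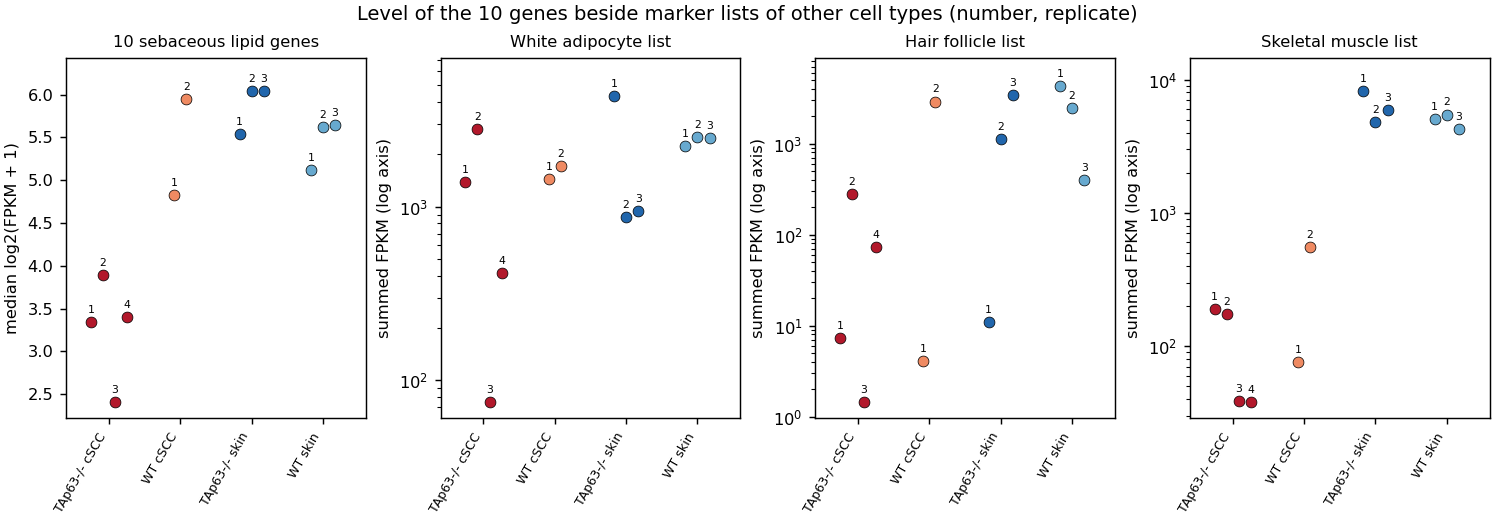
Median log2(FPKM + 1) of the 10 genes in each library (left) beside the summed FPKM (log axes) of the white adipocyte, hair follicle and skeletal muscle marker lists, with each point labelled by its replicate number. WT cSCC replicate 2 stands with skin for the 10 genes and for the hair list, and all tumours lie far below skin for the muscle list.

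The genes most like the 10 were ranked by Pearson's r with the mean log2(FPKM + 1) of the members, among genes with a mean of at least 5 FPKM, as a description with no test. Over the 12 libraries, which fall into tumours and skin, the 8 nearest were Sec14l4 (r = 0.980), Pnpla5, Rdh9, Ces4a, Pxmp4, Sdr16c6, Serpina3b and Tmem109 (0.969). Pnpla5, a lipase of lipid droplets, ranged between 0.32 and 16.8 FPKM, and Sdr16c6, of the short-chain dehydrogenase family, between 7.47 and 252 FPKM. Over the 6 tumours alone the nearest were Mup14 (0.996), Ces1d, Gpam, Mup9, Mup16, Mup13, Pnpla5 and Acacb (0.985). The Mup genes form a cluster of near-identical copies, so their separate values are uncertain. Over the 6 skin libraries the nearest were Arl6ip1 (0.992), Elovl7, Cercam, Ap3b1, Pdxk, Calm4 and Lce1f (0.977), none of which was among the nearest in tumours.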

How the data were processed

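RNA sequencing of mouse skin and squamous cell carcinoma was analysed from 1 deposited table of FPKM values. Per the labels' protocols, total RNA was extracted from frozen tissue (Ambion miRVANA) and made into Illumina TruSeq libraries. Per the submitters' processing notes, the authors used TopHat2 2.0 and Cufflinks 2.0 with mm10. In each library at least 99.98% of the sorted FPKM values of 1 or more lay within 1% of the median library, so the values look quantile-normalized, and read depth is not given in the sources used here. Symbols with several entries were summed. Differences were taken on log2(FPKM + 1), with a pseudocount of 1. Genes that reached 1 FPKM in 2 or more of the 12 libraries were tested by limma 3.58.1 (R 4.3.3) with a variance trend, two-sided. Genotype comparisons used the 6 libraries of their tissue, and tumour and skin comparisons and the interaction a fit of all 12 with 4 group means. The method was checked on simulated data.

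The members and lists were chosen with earlier results of these data known. The text names all 10 members, up to 4 genes per pathway list and tumour comparison with the smallest p, marker genes at 0 or holding most of a sum, and the 8 genes most like the members. A few genes that this rule takes in are not reported here. Positions are those of the table, of which 6 of the 10 equal GENCODE M21. Replicates are numbered in the order of the submission. Alternatives were a pseudocount of 0.1, no filter, a mean of at least 5 FPKM, median-of-ratios scaling, other libraries in the fit, sex as a covariate, the highest entry per symbol and leaving out each library.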

Additional observations from a re-analysis of the deposited data

Results flagged for a closer look

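In the 4 TAp63-/- tumours 37 genes, the 10 members and the called pathway genes, were screened for 1 library far from the rest by Dixon's ratio, the gap to the nearest library over the group's range, and 3 exceeded its 95% critical value, where chance gives about 1 in 20. Mgst1 was low in TAp63-/- cSCC replicate 3, at 32.1 FPKM (ratio 0.877). Soat1 was high in TAp63-/- cSCC replicate 2, at 25.9 FPKM (ratio 0.874), the tumour with the largest white adipocyte and macrophage sums of its group. Krt79, a keratin of the sebaceous duct, was low in TAp63-/- cSCC replicate 3, at 8.25 FPKM (ratio 0.915), the tumour with the lowest white adipocyte sum.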

How the results depend on the processing

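The count of members called was 0 in TAp63-/- skin against WT skin and in TAp63-/- cSCC against WT cSCC under every alternative run. In the interaction it was between 0 and 1 when each library was left out in turn and 0 otherwise. The median difference of the members moved between -2.94 and -2.40 in TAp63-/- mice and between -1.08 and 0.32 in WT mice with a library left out. Genes of the 4 pathway lists that fell numbered 26 in TAp63-/- tumours (20 to 28 with a library left out, 13 with sex as a covariate) and 3 in WT tumours (0 to 12 with a library left out, 1 without the filter, 5 with other libraries in the fit, 0 with sex as a covariate). Those that rose numbered 1 in TAp63-/- tumours (0 to 1 with a library left out, 0 without the filter, 0 with other libraries in the fit) and 1 in WT tumours (0 to 1 with a library left out, 0 without the filter, 0 with sex as a covariate). The fits with a library left out or a covariate added have fewer degrees of freedom; the cause of the other shifts was not tested. Differences of members that did not pass changed sign only when a library was left out: in skin, Awat2 (-0.21 to 0.29), Mgst1 (-0.014 to 0.19), Scd1 (-0.13 to 0.35) and Soat1 (-0.03 to 0.49); in tumours, Awat2 (-1.14 to 0.18) and Scd3 (-1.78 to 0.26); in the interaction, Awat2 (-1.26 to 0.066). Over all genes, sex as a covariate lowered the calls to 1939 of 4017 in TAp63-/- tumours against skin and to 255 of 1687 in WT tumours against skin. No paired analysis was possible because the labels give no replicate numbers shared between groups. The covariate could not be fitted in skin, where all libraries were male. With 2 WT tumours of unlike level and unknown depth, intervals in tumours are wide.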
